A study of Mus musculus with 8 samples.

Results

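Genes that copy DNA were followed through 8 bead arrays of mouse T cells, each taken after coculture with dendritic cells of a skin graft donor's kind. The members were 40 genes of DNA replication and S phase, listed by symbol with earlier results of these data known. The array had 16590 genes named. Of these, 37 had a probe named here, and Gins1, Gins2 and Rfc3 had none. Probes of Orc1, Pola1 and Prim1 were detected on none of the 8 arrays, which left 34 members to test among 7403 genes.

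The T cells came from spleen and lymph nodes of male C57BL/6 mice. Rejecting mice carried BDF1 tail skin, from a cross of C57BL/6 and DBA/2, and were left untreated until day 7 after grafting. Early tolerant mice (day 21) and tolerant mice (day 100) carried the same kind of graft and had received a donor-specific transfusion with MR-1, an antibody to CD40L. Naive mice had no graft. All T cells, the naive ones included, were cocultured for 20 to 21 hours with donor dendritic cells, grown from bone marrow. Cells positive for CD3, a T cell surface protein, were then sorted on CD69, a surface protein that T cells display soon after they meet antigen. Each of the 4 states gave 1 CD69+ and 1 CD69- array, so a state has no replicate within a fraction. The labels' sorting text writes CD3+CD69+ for both fractions, and the fraction was therefore read from each array's title. Every array followed contact with donor dendritic cells, so an unexposed level is lacking, and the sources used here do not give the number of mice per array.

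Replication begins when the origin recognition complex, Cdc6 and Cdt1 load the ring-shaped Mcm2-7 helicase onto DNA. Cyclin E with its kinase, Cdc45, Mcm10 and the GINS proteins then switch the ring on, and polymerases copy both strands behind it with help from the sliding clamp PCNA, its loader RFC and the single-strand binding protein RPA. Resting T cells hold little of this machinery and build it, under E2F transcription factors, in the hours after activation.

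Of the 34 members tested, 32 rose in CD69+ cells and none fell (limma, adjusted p of 0.00101 or less for each that rose, 4 pairs of arrays). Over all 7403 genes, 35.2% rose and 38.0% fell. The member median was 2.24 on the log2 scale, or 4.73-fold (2.15 with undetected members at their lower bounds), and the median of all genes was -0.04. Of the members, 18 rose at least 4-fold, which 3.94% of all genes did, with genes detected on no CD69- array taken at their lower bound. The same 32 members had all 4 CD69+ signals above all 4 CD69- signals, an ordering seen for 31.7% of all genes, and each was higher in CD69+ cells within every state. The 4 states served as the replicates of this test, so a p-value here reflects the variation from state to state and not that between mice.

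**Figure D1:**
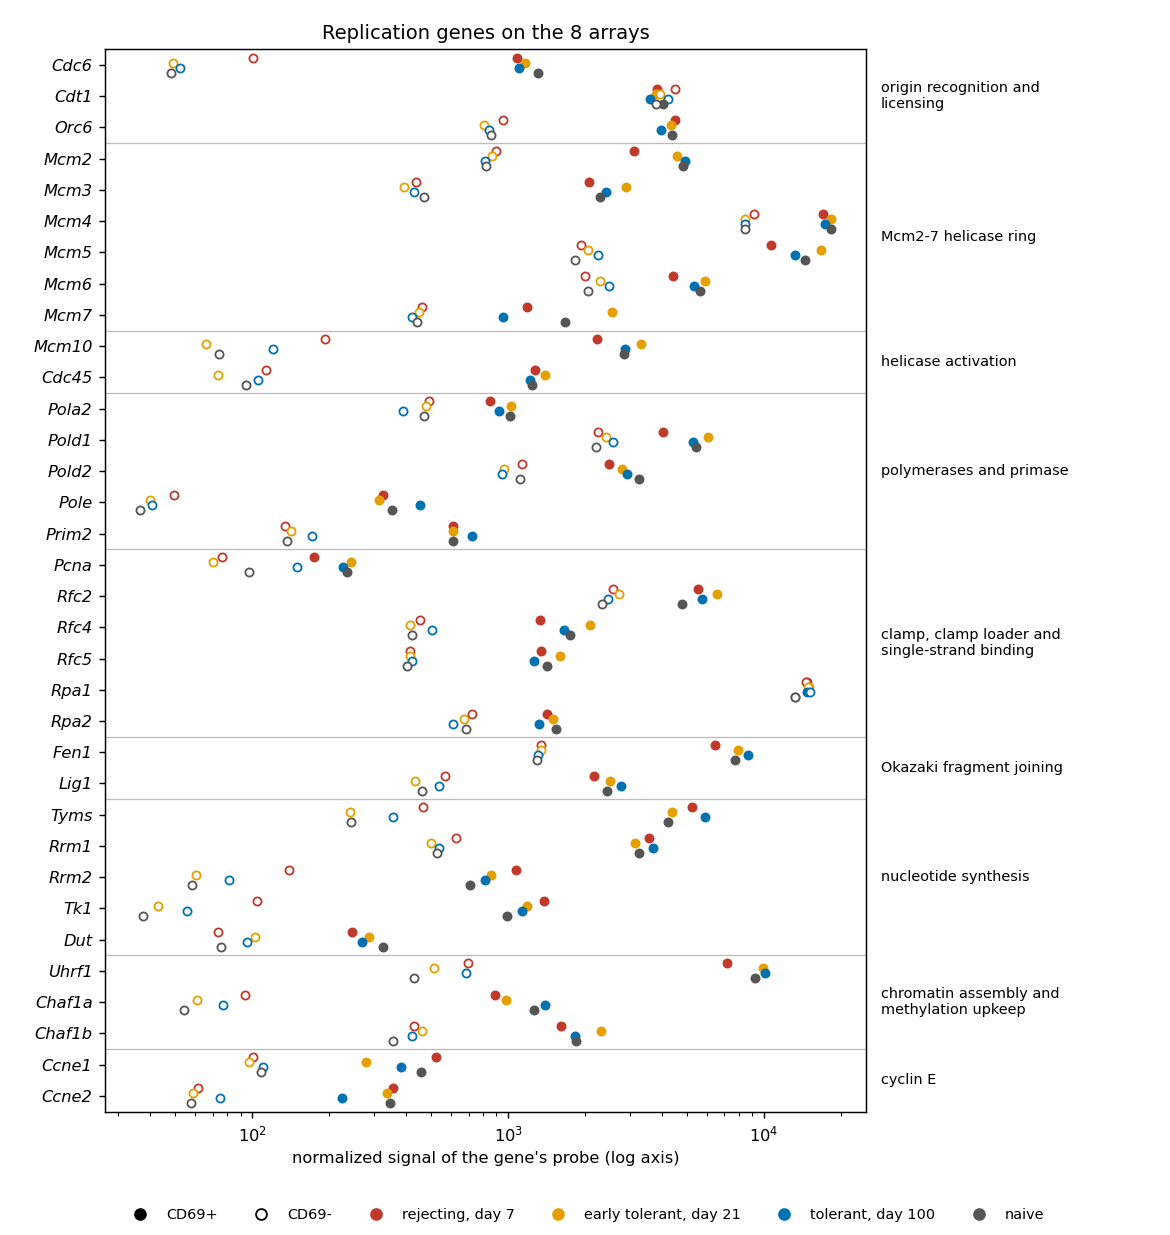
Normalized signals (log axis) of the 34 tested members, grouped by role, on the 8 arrays; filled points are CD69+ and open points CD69- arrays, coloured by recipient state. The filled and open points stand apart for 32 members, and they overlap for Cdt1 and Rpa1.

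All 34 tested members were detected on every CD69+ array. On the CD69- arrays 30 were detected in rejecting, 25 in early tolerant, 29 in tolerant and 26 in naive cells. Pole and Ccne2 were detected on no CD69- array. A bulk signal of this kind cannot tell fewer replicating cells from less RNA per cell. Signals include an offset of 16, which shrinks the folds of dim members, and those folds also depend on the background correction. The level of one gene's probe cannot be set against that of another.

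Markers of other cells differed between the fractions too. Of 15 dendritic and myeloid markers, 14 had a probe and 12 were detected. By the fitted values all 12 rose in CD69+ cells, as did 35.2% of all genes tested. Ciita, 1 of the 12, was detected on 2 CD69+ arrays and no CD69- array. With each undetected array at the lowest detected signal of that array, its fold was only 1.03. Their summed signal was 8981 in rejecting, 41129 in early tolerant, 54099 in tolerant and 17132 in naive CD69+ cells, against 4989.7, 8029, 10488 and 6219.9 in their CD69- partners. Among the brighter of these markers, Lyz2 had 16133, Cd74 9303 and H2-Ab1 3971 in tolerant CD69+ cells, against 3715, 843 and 393 in their CD69- partners. Probes of Itgax and Itgam were detected on no array. None of the 5 markers of granulocyte and cycling marrow precursors with a probe was detected on any array. The 7 T cell markers with a probe had sums between 72819 and 86906 on the CD69+ arrays, against sums between 105546 and 112024 on the CD69- arrays, with 4 of them lower, 1 higher and 2 not past the threshold. Cd3d fell by 1.14 on the log2 scale and Thy1 rose by 0.72, while Cd2 had -0.13 and Cd5 0.04. The part of these cells in the members' difference was not tested. The member median was 2.06 within rejecting cells, where the dendritic sum of the CD69+ array was lowest, 2.42 within early tolerant, 2.10 within tolerant and 2.31 within naive cells. Cd69 itself had 5636 in rejecting, 5511 in early tolerant, 4436 in tolerant and 7543 in naive CD69+ cells, against 1905, 1903, 1922 and 3004 in their CD69- partners, a log2 difference of 1.41.

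The promoters of several members carried words that E2F factors bind, and those of 5 members are printed in part as examples. RefSeq windows (GRCm38.p6, 250 bases before to 50 after each annotated start) were searched on both strands for TTTCCCGC, TTTGGCGC, TTTCGCGC and TTTGCCGC, words that may overlap one another on opposite strands. A window was given for 33 of the 40 members, and 12 held a word: Mcm3, Mcm5, Mcm6, Mcm7, Cdc6, Cdt1, Orc1, Uhrf1, Pola1, Pold1, Rfc3 and Lig1. That is 36.4% of these members, against 2.60% of 27025 genes with a window and 4.97% of the 6122 tested genes with one. The 200 bases before the start of 5 members follow, read 5′ to 3′ along the gene's strand, with the E2F words in capitals. Mcm7 and Uhrf1 have 2 annotated starts each, and the window that holds the word is shown.
Mcm5, chr8:75109309-75109508, plus strand: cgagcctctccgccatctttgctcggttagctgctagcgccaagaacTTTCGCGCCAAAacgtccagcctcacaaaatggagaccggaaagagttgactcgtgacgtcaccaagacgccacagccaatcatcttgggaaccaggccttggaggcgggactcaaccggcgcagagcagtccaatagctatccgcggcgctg
Mcm6, chr1:128359706-128359905, minus strand: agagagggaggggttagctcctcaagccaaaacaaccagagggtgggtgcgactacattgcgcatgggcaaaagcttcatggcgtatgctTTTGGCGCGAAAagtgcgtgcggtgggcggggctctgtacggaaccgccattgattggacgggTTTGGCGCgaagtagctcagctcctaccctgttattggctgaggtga
Mcm7, chr5:138171884-138172083, minus strand: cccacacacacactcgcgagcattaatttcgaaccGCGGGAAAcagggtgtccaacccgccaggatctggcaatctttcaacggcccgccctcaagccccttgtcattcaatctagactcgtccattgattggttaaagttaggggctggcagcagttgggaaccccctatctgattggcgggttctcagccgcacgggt
Cdc6, chr11:98907951-98908150, plus strand: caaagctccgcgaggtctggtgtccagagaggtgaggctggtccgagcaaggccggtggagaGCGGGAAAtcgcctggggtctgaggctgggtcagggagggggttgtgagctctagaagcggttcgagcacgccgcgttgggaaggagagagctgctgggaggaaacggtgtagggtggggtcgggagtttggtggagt
Uhrf1, chr17:56304113-56304312, plus strand: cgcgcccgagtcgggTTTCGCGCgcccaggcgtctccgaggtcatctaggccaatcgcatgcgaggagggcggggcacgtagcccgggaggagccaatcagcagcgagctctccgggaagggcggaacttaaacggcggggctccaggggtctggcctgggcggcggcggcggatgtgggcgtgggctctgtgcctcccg
In Mcm5 and in Mcm6, words on opposite strands overlap to form one run of capitals, and Mcm6 holds a further word nearer its start. Of the tested members with a window, 8 of 9 with a word rose, Cdt1 being the other, and 19 of 20 without one rose, the other being Rpa1. With so few that did not rise, the members cannot show whether the word separates those that rose from the rest. Of all 304 tested genes with a word, 45.7% rose, against 35.3% of the tested genes with a window. The NF-Y word CCAAT was in 20 of the 33 windows (60.6%, against 41.1% of all genes with a window), and TTTGAA, a word of promoters active late in the cell cycle, was in 4 (12.1%, against 20.2%). A match is a run of letters and not a measured binding site.

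Among the genes that license origins, Cdc6 and Orc6 rose while Cdt1 did not pass the test. Cdc6, the loader that brings the ring to origins, had 1084 in rejecting, 1166 in early tolerant, 1103 in tolerant and 1313 in naive CD69+ cells, against 101, 49.0, 52.2 and 48.0 in their CD69- partners. It was detected on 1 CD69- array, that of rejecting mice, and its fitted difference was 4.29 (SE 0.22, adjusted p = 1.28e-05 in limma). With each undetected array at the lowest detected signal of that array, the rise was at least 14.0-fold, and such bounds are given for other members below. Orc6, the smallest subunit of the origin recognition complex, had 4487 in rejecting, 4310.4 in early tolerant, 3942 in tolerant and 4356 in naive CD69+ cells, against 955, 803, 845 and 859 in their CD69- partners. Its 4 differences lay between 2.22 and 2.42, so it was among the steadiest members (log2 2.31, SE 0.09, adjusted p = 9.06e-06). Cdt1, the partner of Cdc6 in loading, had 3803 in rejecting, 3794 in early tolerant, 3568 in tolerant and 4032 in naive CD69+ cells, against 4483, 3903, 4193 and 3765 in their CD69- partners. Its groups overlapped, and its difference was -0.10 (SE 0.10, adjusted p = 0.391), below 0 in the 3 grafted states and 0.10 in naive cells. Orc1, the large subunit whose level is known to vary with the cell cycle, stayed between 22.7 and 26.6 on all 8 arrays and was not detected.

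All 6 subunits of the Mcm2-7 ring rose, with log2 differences of 1.04 to 2.76 and a median of 2.04. Mcm5 had 10684 in rejecting, 16741 in early tolerant, 13217 in tolerant and 14460.2 in naive CD69+ cells, against 1933, 2047, 2244 and 1826 in their CD69- partners (log2 2.76, SE 0.13, adjusted p = 1.12e-05). Mcm3 had 2073 in rejecting, 2895 in early tolerant, 2422 in tolerant and 2282 in naive CD69+ cells, against 435, 391, 427 and 471 in their CD69- partners (log2 2.48, SE 0.13). Mcm2 had 3108 in rejecting, 4584 in early tolerant, 4889.9 in tolerant and 4809 in naive CD69+ cells, against 897, 865, 813 and 822 in their CD69- partners (log2 2.33, SE 0.15, adjusted p = 2.53e-05). In these 3 subunits the CD69- signals of the states lay close together, and the rejecting array was the lowest of the CD69+ arrays.

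Mcm6 and Mcm4 had the smaller rises of the ring on their brightest probes. Mcm6 had 4410.1 in rejecting, 5851 in early tolerant, 5334 in tolerant and 5605 in naive CD69+ cells, against 1993, 2288, 2482 and 2046 in their CD69- partners (log2 1.26, SE 0.10), while another 2 probes of similar signal rose by 1.92 and 1.90, above the value of Mcm7, so the place of Mcm6 in the ring depends on the probe. The brightest probe of Mcm4 had 16984 in rejecting, 18190.5 in early tolerant, 17231 in tolerant and 18289 in naive CD69+ cells, against 9113, 8390.3, 8449 and 8390.3 in their CD69- partners (log2 1.04, SE 0.09, adjusted p = 8.65e-05). On that probe Mcm4 was already bright in CD69- cells, and its rise was the lowest of the 32. Another 2 probes of Mcm4 were far dimmer and had differences of 0.58 (adjusted p = 0.230) and 0.34 (adjusted p = 0.347), neither past the threshold. With the mean of a gene's probes in place of the brightest one, Mcm4 had 0.65 and no longer passed (adjusted p = 0.0533), the only member call that any alternative run here ended.

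Of the ring, Mcm7 varied most over the states. It had 1185 in rejecting, 2546 in early tolerant, 958 in tolerant and 1667 in naive CD69+ cells, against 462, 449.7, 423 and 441 in their CD69- partners (log2 1.74, SE 0.22, adjusted p = 0.000399). Its CD69- signals were nearly level, and its CD69+ signal was 2.66-fold higher in early tolerant than in tolerant cells. Only 1 probe measured Mcm7. Dim probes of Mcm4 and Mcm6 had the same order of states: the 2 dim Mcm4 probes were 5.38-fold and 4.99-fold higher in early tolerant than in tolerant CD69+ cells, against 1.06-fold for the bright probe. One dim probe of Mcm6 gave 2.44-fold, against 0.845 to 1.10 for the other 3 probes of that gene, and a dim Uhrf1 probe, detected on the early tolerant and naive CD69+ arrays only, gave at least 1.52-fold, against 0.989 for the bright one. The state comparison of a member can thus depend on which of its probes is read, and what these dim probes share was not tested.

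**Figure D2:**
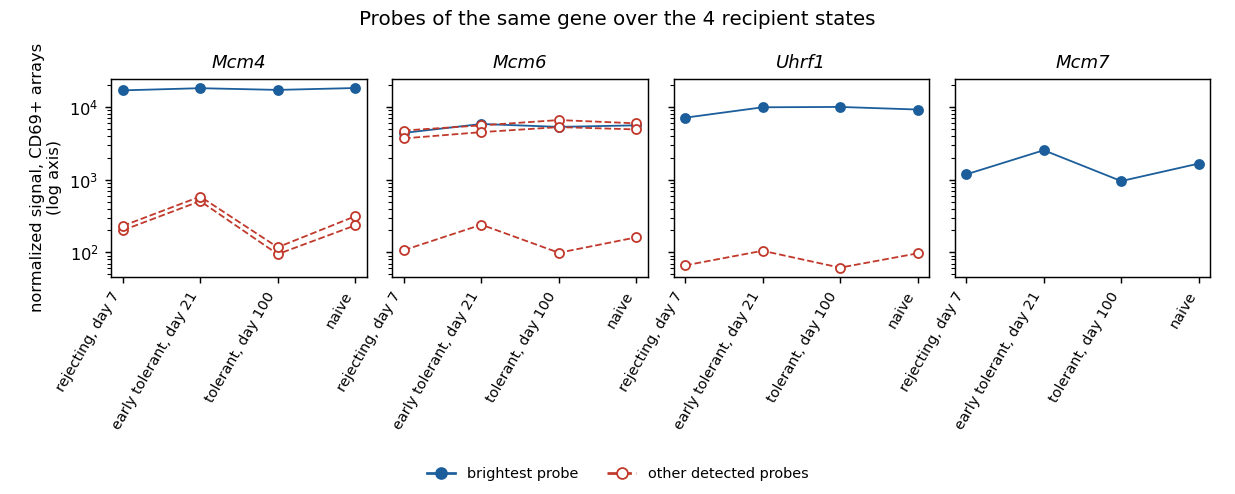
Normalized signals (log axis) of every detected probe of Mcm4, Mcm6, Uhrf1 and Mcm7 on the CD69+ arrays of the 4 states; blue is the gene's brightest probe and red dashed lines are its other probes. The dim Mcm4 probes and the single dim Mcm6 probe peaked in early tolerant and were lowest in tolerant cells, as the Mcm7 probe did. The other red Mcm6 lines, of similar signal to the blue one, were highest in tolerant cells, and the bright Mcm4 probe was nearly level. The dim Uhrf1 probe was not detected in rejecting and tolerant cells, and the bright Uhrf1 probe ran between 7138 in rejecting and 10041 in tolerant cells.

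The 2 tested factors that activate the loaded ring had the highest median of any role, 4.25. Mcm10, which joins the activated helicase to the polymerases, had 2229 in rejecting, 3295 in early tolerant, 2857 in tolerant and 2824 in naive CD69+ cells, against 192, 66.0, 120.2 and 74.1 in their CD69- partners. It was detected on the rejecting and tolerant CD69- arrays only, and rose at least 25.5-fold (fitted log2 4.75, SE 0.32, adjusted p = 2.93e-05). On the brightest probes this was the highest value among the members with or without such bounds. A second, dimmer Mcm10 probe had 401 to 623 in CD69+ cells, was detected on no CD69- array and had a lower fitted difference, 4.04. Cdc45, a constant part of the moving helicase, had 1278 in rejecting, 1392 in early tolerant, 1216 in tolerant and 1239 in naive CD69+ cells, against 113, 73.3, 105 and 94.2 in their CD69- partners. Its CD69+ signals differed little over the states, and it rose at least 13.2-fold (fitted log2 3.75, SE 0.15, adjusted p = 8.97e-06). Of the CD69- arrays, 3 of the 4 detected it.

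All 5 tested polymerase and primase genes rose, with a median of 1.45. Pole, the catalytic subunit of the leading-strand polymerase epsilon, had 323 in rejecting, 312 in early tolerant, 451 in tolerant and 351 in naive CD69+ cells and was detected on no CD69- array. Its rise was at least 4.52-fold (adjusted p = 1.1e-05). Prim2, the large subunit of the primase that starts each new strand, had 611 in rejecting, 610.4 in early tolerant, 720.2 in tolerant and 611 in naive CD69+ cells, against 135, 142, 171 and 137 in their CD69- partners. Its differences spanned only 2.07 to 2.18 (log2 2.13, SE 0.09, adjusted p = 9.43e-06).

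The subunits of the other polymerases rose less. Pold2, an accessory subunit of the lagging-strand polymerase delta, had signals of 2467 to 3247 in CD69+ cells, against 948 to 1129.8 in CD69- cells (log2 1.45). Pold1, the catalytic subunit of polymerase delta, had signals of 4021 to 6059 in CD69+ cells, against 2196 to 2562 in CD69- cells (log2 1.13). Pola2, the regulatory subunit of polymerase alpha, had 852 in rejecting, 1029 in early tolerant, 919 in tolerant and 1014 in naive CD69+ cells, against 489.8, 479.5, 387 and 469 in their CD69- partners (log2 1.07, SE 0.11, adjusted p = 0.000143). The groups did not overlap for any of these 3. Pola1 and Prim1, the catalytic subunits of polymerase alpha and primase, had signals of 24.9 to 26.7 and 26.4 to 46.4 on the 8 arrays and were not detected.

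Of the clamp, clamp loader and RPA genes, 5 of 6 tested rose, with a median of 1.18. Rfc4, a loader subunit, had 1332 in rejecting, 2089 in early tolerant, 1651 in tolerant and 1748 in naive CD69+ cells, against 452, 415, 502 and 419 in their CD69- partners (log2 1.92, SE 0.15, adjusted p = 4.49e-05). The loader subunit Rfc5 rose by 1.76, with signals of 1263 to 1596 in CD69+ cells, against 404 to 421 in CD69- cells, and Rfc2 by 1.15, with signals of 4759 to 6518 in CD69+ cells, against 2329 to 2720.0 in CD69- cells. The clamp gene Pcna had 174 in rejecting, 243 in early tolerant, 226 in tolerant and 234 in naive CD69+ cells, against 76.2, 70.2, 149 and 96.8 in their CD69- partners. It was detected on the tolerant and naive CD69- arrays alone, and its rise of 1.21 (SE 0.19, adjusted p = 0.00101) had the highest adjusted p of the members that rose. The difference was 0.60 in tolerant cells, where the CD69- signal was highest, and 1.79 in early tolerant cells. Only 1 probe measured Pcna, with signals no higher than 243 on any array.

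The subunits of RPA, which coats single-stranded DNA, parted. Rpa2 had 1415 in rejecting, 1503 in early tolerant, 1314 in tolerant and 1534 in naive CD69+ cells, against 724, 673, 607 and 683 in their CD69- partners and rose by 1.10 (SE 0.09, adjusted p = 6.45e-05). Rpa1, the large DNA-binding subunit, had 14698 in rejecting, 14922 in early tolerant, 14698 in tolerant and 13184 in naive CD69+ cells, against 14589, 14812, 15094 and 13184 in their CD69- partners. Its groups overlapped, and the difference was -0.004 (SE 0.09, adjusted p = 0.968).

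Both genes that finish Okazaki fragments, the short pieces of the lagging strand, rose. Fen1, the flap endonuclease, had 6416 in rejecting, 7907 in early tolerant, 8641 in tolerant and 7684 in naive CD69+ cells, against 1343, 1345, 1311 and 1301 in their CD69- partners (log2 2.52, SE 0.11, adjusted p = 1.07e-05). Lig1, the ligase that seals the nicks, had 2166 in rejecting, 2492 in early tolerant, 2756 in tolerant and 2437 in naive CD69+ cells, against 567, 433, 534 and 462 in their CD69- partners (log2 2.31, SE 0.12, adjusted p = 1.4e-05). In both genes the rejecting array was the lowest of the CD69+ arrays. Lig1 had 4 detected probes, and 1 dim probe had a difference of 0.51 that did not pass (adjusted p = 0.0555).

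The 5 enzymes of deoxynucleotide synthesis rose with a median of 3.42. Tk1, thymidine kinase, had 1383 in rejecting, 1189 in early tolerant, 1128 in tolerant and 993 in naive CD69+ cells, against 105, 42.9, 55.6 and 37.3 in their CD69- partners. It was detected on the rejecting CD69- array alone and rose at least 13.9-fold (fitted log2 4.40, SE 0.19, adjusted p = 1.07e-05). A second, dimmer Tk1 probe had a fitted difference of 1.47, with signals of 119 to 132 in CD69+ cells. Its CD69- signals of 37.2 to 59.2 were undetected, below the lowest detected signals there of 77.6 to 80.0. Tyms, thymidylate synthase, had 5213 in rejecting, 4356 in early tolerant, 5851 in tolerant and 4199 in naive CD69+ cells, against 464, 241, 356 and 242 in their CD69- partners and rose 15.5-fold (log2 3.95, SE 0.14, adjusted p = 8.97e-06). Both thymidylate genes had their highest CD69- signal in rejecting cells.

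Ribonucleotide reductase makes deoxynucleotides from ribonucleotides, and both its subunits rose. Its small subunit Rrm2 had 1075 in rejecting, 853 in early tolerant, 810.1 in tolerant and 710.4 in naive CD69+ cells, against 139.5, 60.4, 81.5 and 58.2 in their CD69- partners (fitted log2 3.42, SE 0.15, adjusted p = 1.09e-05). It was detected on the rejecting and tolerant CD69- arrays only, and rose at least 9.37-fold. The large subunit Rrm1 had 3534 in rejecting, 3141 in early tolerant, 3676 in tolerant and 3252 in naive CD69+ cells, against 626, 499, 536 and 525 in their CD69- partners (log2 2.64, SE 0.09, adjusted p = 8.97e-06). Dut, which removes dUTP before it is built into DNA, had 246 in rejecting, 285 in early tolerant, 268 in tolerant and 323 in naive CD69+ cells, against 73.3, 102, 95.3 and 75.7 in their CD69- partners. It had the smallest rise of the 5 enzymes (fitted log2 1.70, SE 0.13, adjusted p = 4.57e-05), at least 3.16-fold with 2 of the CD69- arrays undetected, and, unlike the other 4, its highest CD69+ signal in naive cells.

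The genes that restore chromatin behind the fork all rose, by 2.18 or more. Uhrf1, which guides the maintenance methyltransferase to newly copied DNA, had 7138 in rejecting, 9931 in early tolerant, 10041 in tolerant and 9249 in naive CD69+ cells, against 699, 515, 683 and 429.5 in their CD69- partners. Its brightest probe rose 15.8-fold (log2 3.98, SE 0.18, adjusted p = 1.1e-05). A dim Uhrf1 probe had a fitted difference of 1.49 but was detected on no CD69- array. Its CD69+ signals were 61.6 to 105, and the lowest detected signals of the CD69- arrays were 77.6 to 80.0. Chaf1a, the large subunit of the histone chaperone CAF-1, had 891 in rejecting, 981 in early tolerant, 1388 in tolerant and 1264 in naive CD69+ cells, against 94.1, 60.8, 76.6 and 54.1 in their CD69- partners and rose at least 13.6-fold (SE of the fitted log2 value 0.20, adjusted p = 1.28e-05). Of the CD69- arrays, the rejecting one alone detected it. Chaf1b, its middle subunit, had signals of 1609 to 2305 in CD69+ cells, against 354 to 460.0 in CD69- cells (log2 2.18, SE 0.11).

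The genes of cyclin E, which starts S phase with Cdk2, also rose. Ccne1 had 520.2 in rejecting, 278 in early tolerant, 382 in tolerant and 456 in naive CD69+ cells, against 101, 97.5, 110.4 and 108 in their CD69- partners (log2 1.94, SE 0.15, adjusted p = 5.01e-05). Ccne2 had 354 in rejecting, 335 in early tolerant, 224 in tolerant and 345 in naive CD69+ cells, was detected on no CD69- array and rose at least 3.94-fold (adjusted p = 5.55e-05). The lowest CD69+ signal was in early tolerant cells for Ccne1 and in tolerant cells for Ccne2.

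**Figure D3:**
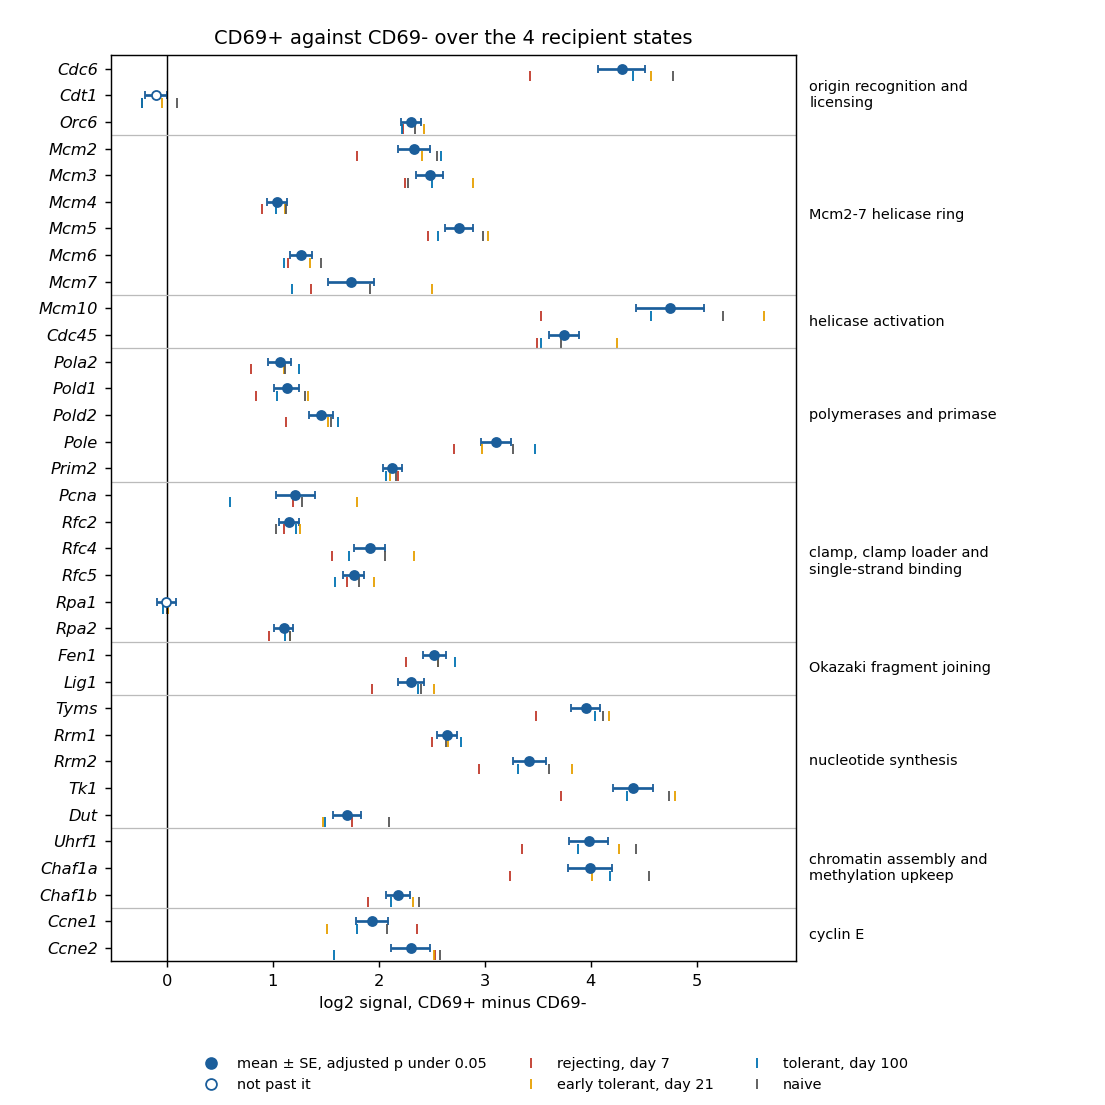
Log2 difference of CD69+ minus CD69- signal for the 34 tested members by role; points are the mean of 4 states with its standard error, filled where the adjusted p was under 0.05, and coloured ticks are the single states. Mcm10 is highest at 4.75, Cdt1 and Rpa1 lie near 0, and the red ticks of rejecting cells are the lowest of the 4 for 23 members.

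Several probes were detected for 11 members, and in 9 of them every such probe rose past the threshold, the exceptions being Mcm4 and Lig1. These calls rest on fitted values without floors, and the dim Uhrf1 probe among them was detected on no CD69- array.

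The study asked how T cells of rejecting and tolerant mice differ, and with 1 array per group those comparisons have no replicate check and no test. They are given as log2 differences, with 1.5-fold, the fold named in the design text, as the size counted. Rejecting cells had the lowest CD69+ to CD69- difference of the 4 states for 23 of the 34 members, the lowest CD69+ signal for 18 and the highest CD69- signal for 19. Over all 7403 genes rejecting cells held these places for 29.6%, 28.2% and 32.2% of genes, in the same order of measures.

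In CD69+ cells, 24 of 34 members were lower and 10 higher in rejecting than in naive mice, with a median of -0.15, against -0.01 for all genes. Of all 6988 genes compared, 3547 were lower and 3432 higher. Only Rrm2 was at least 1.5-fold higher (6.22% of all genes were) and only Mcm2 at least 1.5-fold lower (4.99% of all genes were). All 6 subunits of the ring lay below naive cells, from -0.63 for Mcm2 to -0.11 for Mcm4, with a median of -0.39. Of the 5 nucleotide enzymes, 4 lay above: Rrm2 by 0.60, Tk1 by 0.48, Tyms by 0.31 and Rrm1 by 0.12, with Dut at -0.39. Chaf1a was at -0.50, Mcm7 at -0.49, Pold1 at -0.43 and Pcna at -0.43. Rfc2 and Ccne1 were among the higher ones, by 0.22 and 0.19. The counts of members past 1.5-fold were not above the share of all genes, and the ring and the nucleotide enzymes lay on opposite sides of 0. With no background correction Rrm2 no longer passed 1.5-fold.

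**Figure D4:**
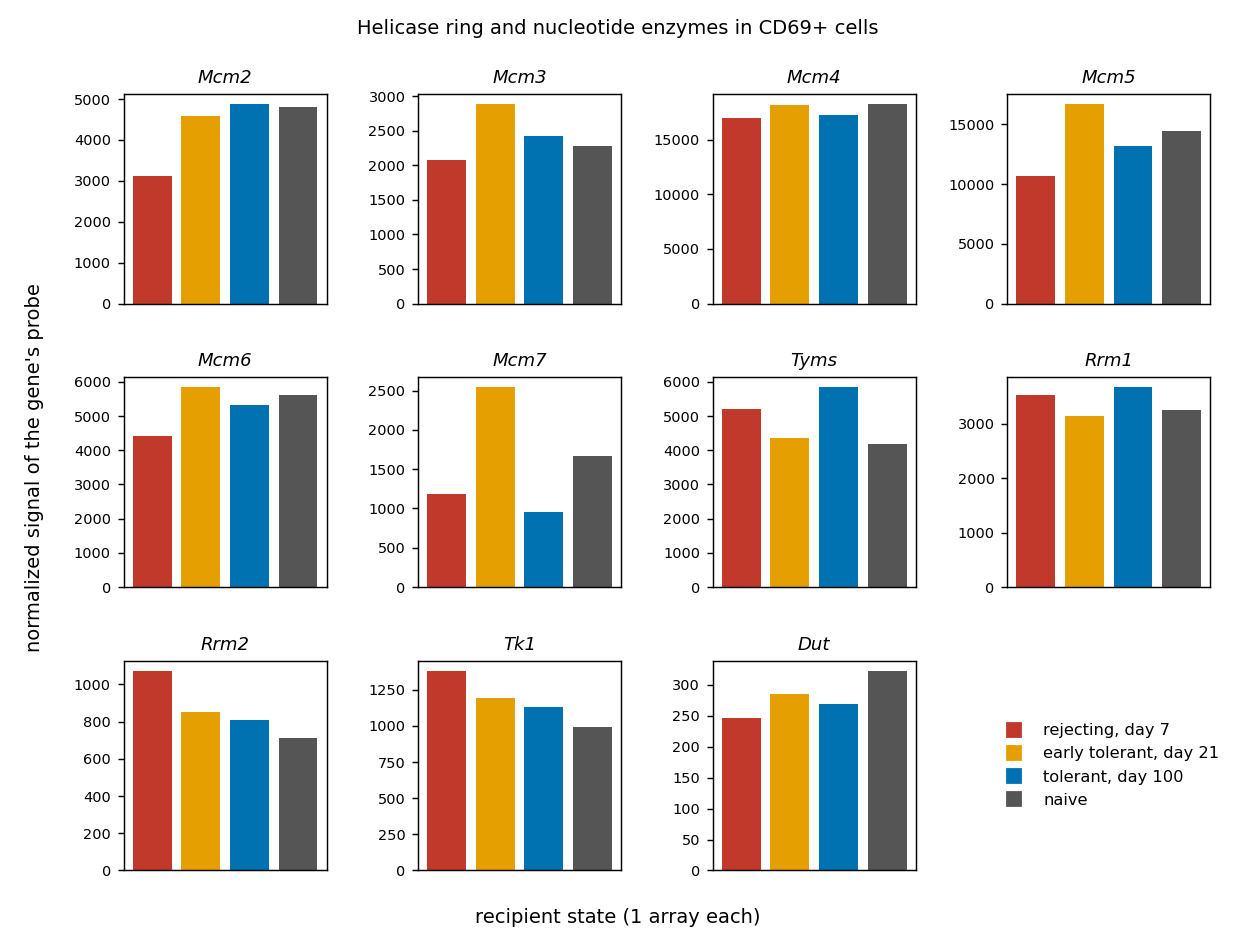
Normalized signal (linear axis from 0, 1 array per bar) of the 6 Mcm2-7 subunits and the 5 nucleotide enzymes in CD69+ cells of the 4 states. Rejecting bars are below naive bars for all 6 ring subunits and above them for Tyms, Rrm1, Rrm2 and Tk1.

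Among CD69- cells the direction was the other one. Of 31 members detected on at least 1 of the 2 arrays, 26 were higher and 5 lower in rejecting than in naive mice, with a median of 0.13, against 0.03 for all genes. Of all 6768 genes compared, 3671 were higher and 3078 lower. At least 1.5-fold higher were 4 members (2.72% of all genes were), and none was as much lower (3.71% of all genes were). Tyms was 1.92-fold higher and Uhrf1 1.63-fold higher, both detected on each array. Mcm10 was at least 2.48-fold higher and Rrm2 at least 1.80-fold higher in rejecting cells, since neither was detected on the naive array. Tk1 was at least 1.35-fold, Cdc6 at least 1.30-fold and Chaf1a at least 1.21-fold higher for the same reason. Pcna was the lowest member, at least 1.21-fold lower in rejecting cells. With the mean of a gene's probes, 1 member in place of 4 passed 1.5-fold, with Mcm10 at 0.08 and Uhrf1 at 0.26. With no background correction and with the authors' normalized values, Mcm10 was at 0.79 and Rrm2 at 0.48 on the log2 scale. Rrm2 was then under 1.5-fold.

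**Figure D5:**
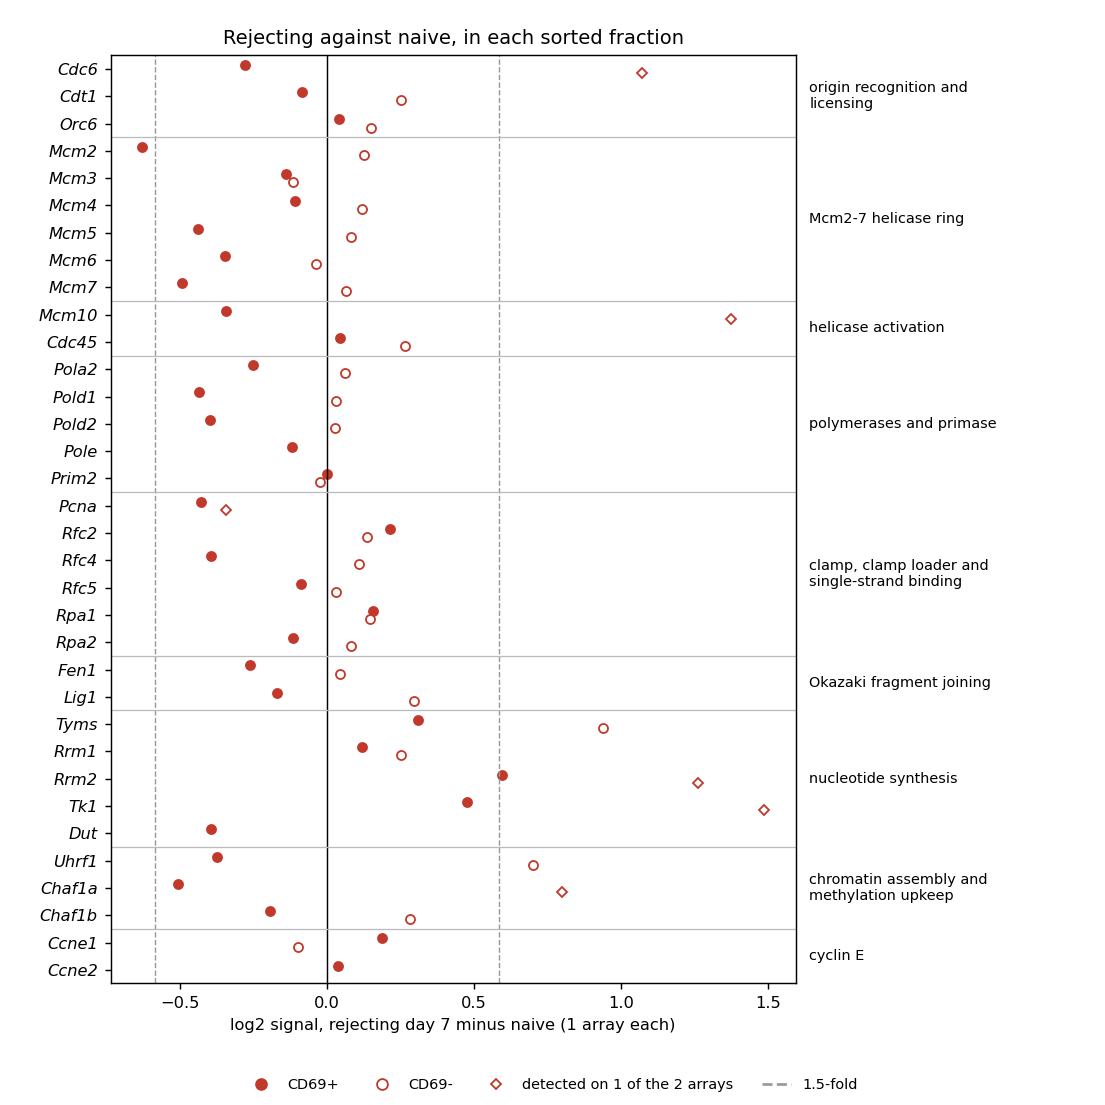
Log2 difference of rejecting minus naive signal for the 34 tested members by role, filled for CD69+ and open for CD69- arrays; diamonds are members detected on 1 of the 2 arrays, drawn at their normalized difference, and members detected on neither have no open point. Most filled points lie left of 0 and most open points right of it.

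Few members passed 1.5-fold between early tolerant and naive cells. In CD69+ cells 20 members were higher and 14 lower, with a median of 0.05. Of all 7107 genes compared, 3478 were higher and 3613 lower (median -0.005). Mcm7 was the 1 member at least 1.5-fold higher, by 0.61 (3.95% of all genes were), and Ccne1 the 1 at least 1.5-fold lower, at -0.72 (2.87% of all genes were). In CD69- cells none of 27 members was 1.5-fold higher or lower, which 1.29% and 1.67% of all genes were. The median was 0.03, against 0.02 for all genes.

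In tolerant CD69+ cells 15 members were higher and 19 lower than in naive CD69+ cells, with a median of -0.04. Of all 7055 genes compared, 3552 were higher and 3488 lower (median 0.004). No member was at least 1.5-fold higher (6.11% of all genes were), and Mcm7 at -0.80 and Ccne2 at -0.63 were at least 1.5-fold lower (3.88% of all genes were). The members next highest and lowest were Tyms at 0.48, Pole at 0.36, Rfc2 at 0.26 and Dut at -0.27. In CD69- cells 22 of 29 members were higher in tolerant mice, with a median of 0.16, as were 3622 of all 6762 genes compared, with a median of 0.02. Pcna by 0.63 on the log2 scale, Uhrf1 by 0.67 and Mcm10, at least 1.55-fold, were the 3 at least 1.5-fold higher (2.16% of all genes were), and none was as much lower (2.43% of all genes were).

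Set directly against each other, rejecting CD69+ cells had 10 members above and 23 below tolerant CD69+ cells, with a median of -0.15. Of all 7059 genes compared, 3498 were above and 3544 below (median -0.002). Ccne2 was at least 1.5-fold higher, by 0.66 (6.83% of all genes were), while Mcm2 at -0.65 and Chaf1a at -0.64 were at least 1.5-fold lower (7.52% of all genes were). Uhrf1 at -0.49 and Pole at -0.48 came next on the low side, and Ccne1 at 0.44 and Rrm2 at 0.41 on the high side. In CD69- cells 22 of 32 members were higher in rejecting mice, with a median of 0.09, as were 3503 of all 6781 genes compared, with a median of 0.01. Rrm2 was 1.71-fold and Mcm10 1.60-fold higher (3.54% of all genes passed 1.5-fold), and Pcna was at least 1.87-fold lower (4.47% of all genes). The design text names candidate genes of tolerance and of rejection by 1.5-fold differences and a signal of at least 500 in CD69+ cells. On the values normalized here no member met either set: none passed the fold of tolerant over naive CD69+ cells, and Ccne2, the 1 member that passed the fold of rejecting over tolerant CD69+ cells, had a signal of 354 in rejecting cells.

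Most tested genes of 5 related lists, chosen with earlier results of these data known, rose in CD69+ cells as well. Over all 7403 genes tested, 35.2% rose and 38.0% fell. Of 27 tested genes among 38 other fork and origin genes, 22 rose and 1 fell. Their median was 1.08, or 0.89 when each undetected array was set to its floor, the lowest detected signal there. Of the 22 that rose, 2 were detected on no CD69- array, and at the floors their folds were only 1.22 and 1.03. Clspn, the checkpoint mediator claspin, rose at least 12.0-fold, Atad5, which unloads PCNA, at least 7.25-fold and Chtf18, of an alternative clamp loader, at least 5.74-fold, while the histone chaperone gene Asf1a fell by 1.04. Orc3 and Orc5, core subunits of the origin recognition complex, had -0.25 and -0.34 and did not pass, unlike Orc6.

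Of 14 tested genes among 18 other nucleotide supply genes, 11 rose and 3 fell (median 2.18). Shmt1 and Shmt2 feed one-carbon units to thymidylate synthesis, and Shmt1 rose at least 8.32-fold and Shmt2 by 2.89. Dctd, which makes the substrate of Tyms, rose by 3.34. The genes that fell were Rrm2b, the reductase subunit used outside S phase, by 1.78, Samhd1, which breaks deoxynucleotides down, by 1.38 and Dck, a salvage kinase, by 0.55. Thus Rrm2 and Rrm2b, alternative partners of Rrm1, moved in opposite directions.

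Of 23 tested genes among 28 regulators of S phase entry, 16 rose and 4 fell (median 0.85, or 0.61 at the floors). Of the 16, 1 was detected on no CD69- array, and its fold at the floors was 1.43. E2f1, an activating E2F, rose by 3.84, its partner gene Tfdp1 by 3.37 and Cdkn1a, which encodes the kinase inhibitor p21 and was detected on 3 of 4 CD69- arrays, by 3.36. Cdkn1b, which encodes the inhibitor p27 of resting cells, fell by 3.45, the inhibitor gene Cdkn2d by 1.80 and Rbl2, the pocket protein p130 that represses E2F targets in resting cells, at least 2.18-fold, since no CD69+ array detected it. Cdkn1b had 168 in rejecting, 158 in early tolerant, 142 in tolerant and 122 in naive CD69+ cells, against 1289.8, 1542, 1677 and 1967 in their CD69- partners, so its groups did not overlap. Cdk2, the kinase of cyclin E, rose by 1.36. Of 11 tested checkpoint and repair genes among 18, 10 rose and none fell (median 1.50, or 0.82 at the floors). However, 5 of the 10 were detected on no CD69- array, and for 1 of them, Bard1, the floors leave no fold to give. Rad54l, a recombination gene, rose at least 10.4-fold, Fancd2, of DNA crosslink repair, at least 4.02-fold and Chek1, the checkpoint kinase, at least 1.74-fold. At the low end Fanci, the partner of Fancd2, rose by 0.82, the mismatch repair gene Msh6 by 0.41, and Atrip, the partner of the kinase ATR, had 0.15 and did not pass.

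Of 16 tested mitosis genes among 28, 14 rose and 1 fell (median 2.25, or 1.90 at the floors). Of the 14, 3 were detected on no CD69- array, and their folds at the floors were 1.98, 4.04 and 5.41. Cdk1, the mitotic kinase, rose at least 12.1-fold, Top2a, a topoisomerase, by 3.78 and Birc5, survivin, by 3.52, while Cenpa, the centromeric histone gene, fell by 0.97 and the kinesin gene Kif23 had -0.30 and did not pass. Within CD69+ cells, 14 of the 16 mitosis genes lay above naive cells in rejecting mice (median 0.24), where 24 of 34 replication members lay below them (median -0.15). Of all 6988 genes compared there, 3432 lay above and 3547 below. In early tolerant and tolerant mice the mitosis medians over naive CD69+ cells were 0.31 and 0.35. These comparisons share the naive array, and the difference between the lists was not tested.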

How the data were processed

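RNA was hybridized to Illumina MouseRef-8 bead arrays, per the design text, and BeadStudio 3.1.3 is named in the submitters' processing notes. One deposited table holds a mean bead intensity and a detection p-value for every probe and array, per the file headers. The series matrix holds the authors' normalized intensity. The 2 tables disagreed on identifiers: of 25697 probes paired by their values on the 8 arrays, 20106 (78.2%) stood under another identifier in the first table, and those of the series matrix were used. They gave 1 gene symbol to 23978 probes and none to 1719, and 23971 of the symbols were in the RefSeq gene table.

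The neqc function of limma 3.58.1 under R 4.3.3 corrected the background from the detection p-values, added an offset of 16, quantile-normalized and took log2, and the signals printed are those values returned to the linear scale. Arrays had 9593 to 10308 detected probes (37.3% to 40.1% of all) and median deposited intensities from 107 to 119. A gene's probe with the highest mean stood for it, and 7403 genes whose detection p was below 0.01 on 2 or more arrays were fitted. The fit was limma's linear model (lmFit, eBayes), two-sided, with the state as a block and 3 residual degrees of freedom, Benjamini-Hochberg adjustment over all genes fitted and a threshold of 0.05. It was tested on simulated data. The pairing comes from the design text, in which each coculture was split by CD69. The 2 arrays of a state deviated together from the means of their fractions, with correlations of 0.345 in rejecting, 0.209 in early tolerant, 0.296 in tolerant and 0.273 in naive mice.

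States were compared within a fraction without a test. An "at least" fold sets the detected array or group against the lowest detected signal on the dim arrays, or against the dim probe itself where that was higher, and where only some arrays of a group detected a gene, the undetected ones are treated so. Such a fold is a bound for the background-corrected values only. Full values are given for the highest and lowest members of every role, for the ring and the nucleotide enzymes, and for members at the extremes of the state comparisons, and for other lists the highest and lowest genes by fitted difference. Cdk2, Bard1, Cdkn1b, Gart, Myc, Nasp and Umps, the probes shown for Mcm4, Mcm6 and Uhrf1 and the state values of Cdkn1a and Samhd1 were picked after their values were seen. The members and lists were chosen with earlier results of these data known. Alternatives are in the closing section.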

Additional observations from a re-analysis of the deposited data

Results flagged for a closer look

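In groups of 4 arrays, 6 of 68 had 1 signal whose gap to the nearest other exceeded Dixon's 95% limit, where chance flags about 5% of groups. In CD69+ cells these were Mcm2, lowest in rejecting cells at 3108, Prim2, highest in tolerant cells at 720.2, Ccne2, lowest in tolerant cells at 224, and Rpa1, lowest in naive cells at 13184. In CD69- cells they were Mcm4, highest in rejecting cells at 9113, and Cdc6, highest in rejecting cells at 101, the 1 CD69- array that detected it.

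Some differences from naive cells ran in opposite directions in the sorted fractions, with 1 array on each side, and the contrast between fractions was not tested. The member median of rejecting minus naive was -0.15 in CD69+ cells and 0.13 in CD69- cells, and that of tolerant minus naive was -0.0353 in CD69+ cells and 0.16 in CD69- cells. Rejecting minus naive was -0.34 for Mcm10 in CD69+ cells and at least 1.31 in CD69- cells, or 0.79 there with no background correction. It was -0.63 for Mcm2 in CD69+ cells and 0.13 in CD69- cells, and -0.37 for Uhrf1 in CD69+ cells and 0.70 in CD69- cells. Tolerant minus naive was -0.0461 for Pcna in CD69+ cells and 0.63 in CD69- cells.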

How the results depend on the processing

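The count of members higher in CD69+ cells was 31 to 33 under every alternative run, and none was lower under any. It was 32 with no replicate block, which changed no member's call, and 32 without each state in turn, with medians of 2.16 to 2.25. The member median was 1.82 with no background correction and with the authors' normalized values, 2.00 with an offset of 50, and 1.86 with the mean of a gene's probes. Members past 1.5-fold between states moved more, since each count rests on 1 to 4 genes near the limit. With no background correction and with the authors' values, the count higher became 0 for rejecting over naive and rejecting over tolerant CD69+ cells, and 0 for tolerant over naive and rejecting over tolerant CD69- cells. The count lower became 1 for tolerant against naive CD69+ cells and 0 for rejecting against tolerant CD69- cells. With an offset of 50, the higher count was 0 for rejecting over naive CD69+ cells and 1 for tolerant over naive and rejecting over tolerant CD69- cells, and the lower count for tolerant against naive CD69+ cells was 1, as with median scaling. With the mean of probes, the higher counts were 0 for rejecting over naive, 2 for early tolerant over naive and 2 for rejecting over tolerant CD69+ cells, and 1 for each of rejecting over naive, tolerant over naive and rejecting over tolerant CD69- cells. The causes were not tested. Dim CD69- signals limit the folds of 10 members that were not detected on all 8 arrays.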

Other observations

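Cdkn1a, the p21 gene, had 5837 in rejecting, 1062 in early tolerant, 764 in tolerant and 634 in naive CD69+ cells, against 303, 84.6, 150 and 71.0 in their CD69- partners. The rejecting array was the highest in both fractions, by 3.20 on the log2 scale over naive CD69+ cells, where 24 of 34 replication members lay below naive cells. Myc, a driver of growth and S phase entry, had 529.5 in rejecting, 821 in early tolerant, 815 in tolerant and 1392 in naive CD69+ cells, so rejecting minus naive was -1.39. Samhd1, which breaks deoxynucleotides down, had 11706 in rejecting, 9211 in early tolerant, 5208 in tolerant and 12980.0 in naive CD69- cells. With 1 array each, none of these differences between states was tested.

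Other nucleotide supply genes went the opposite way from the nucleotide enzymes among the members in rejecting CD69+ cells. Of the 14 tested, 11 lay below naive cells, with a median of -0.33, while 4 of the 5 member enzymes lay above, with a median of 0.31. The same 14 genes were below naive cells in 13 cases in early tolerant and 11 in tolerant CD69+ cells. Over all genes, 3547 of 6988 lay below in rejecting, 3613 of 7107 in early tolerant and 3488 of 7055 in tolerant cells. Dctd had -0.62 and Gart, of purine synthesis, -0.64 in rejecting minus naive CD69+ cells. The states share the naive array, and these contrasts were not tested.

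Nasp, a histone chaperone gene, and Umps, of pyrimidine synthesis, had early tolerant and naive CD69+ cells above rejecting and tolerant ones, as did Mcm7 and the dim probes of Mcm4 and Mcm6, though the full order of the 4 states differed. Nasp had 2049 in rejecting, 3223 in early tolerant, 2077 in tolerant and 3059 in naive CD69+ cells. Umps had 2509 in rejecting, 3782 in early tolerant, 2468 in tolerant and 3948 in naive CD69+ cells. The CD69- signals of the 4 states lay between 1151 and 1240.4 for Nasp and between 627 and 789 for Umps. These genes were picked out after their values were seen, and what the probes share was not tested.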
